A study of Canis lupus familiaris with 12 samples.

Results

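HTR2B, HTR2A, HTR1A, HTR1B and HTR1D are serotonin receptors, and their messenger RNA was followed here in cultured dog melanoma cells given anti-inflammatory drugs. They were taken as all array probes whose accession is a dog RefSeq transcript of one of these genes. That gave 5 probes, 1 for each of the 5 genes, of 43603 probes on the array, of which 1313 carried a named gene (832 genes in all). Each probe had 1 spot per array. The genes were chosen by a measured value, the higher signal of HTR2B after carprofen and robenacoxib than in control cells, so HTR2B is described below without a test. HTR2A, HTR1A, HTR1B and HTR1D entered as members of the same receptor family.

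All 12 arrays came from one culture line, Mi/CMM1, which was started from an oral melanoma of a dog, so they carry no spread between animals. There were 4 groups of 3 arrays: cells labelled as having had no treatment, with no vehicle named, and cells given piroxicam, carprofen or robenacoxib, which are nonsteroidal anti-inflammatory drugs that block cyclooxygenases. By the sample labels and the design text, exposure lasted 6 h, with 116 µM piroxicam, 779 µM carprofen or 156 µM robenacoxib. By the treatment protocol it lasted 24 h, with the doses of piroxicam and carprofen exchanged (779 µM and 116 µM). This conflict was not settled, doses differ between the drugs in either version, and the drugs are therefore set side by side only. The design calls the replicates biological. It does not say how the cultures were kept apart, so p-values cover the spread between these arrays, which may be technical.

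Serotonin receptors of this family sit in the cell membrane and signal through G proteins. HTR2B and HTR2A couple mainly to Gq, which acts through phospholipase C, calcium release and protein kinase C. HTR1A, HTR1B and HTR1D couple to Gi, which lowers cyclic AMP by holding back adenylyl cyclase. HTR2B is best known from heart valves and lung vessels, HTR2A from cortex and platelets, HTR1A from the raphe and hippocampus, and HTR1B and HTR1D as targets of the triptans. In human uveal melanoma, HTR2B is one of the genes used to class tumours by expression. Skin pigment cells are known to make and respond to serotonin and its relative melatonin.

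The arrays lay on 3 slides, each scanned as a unit. Carprofen 1 shared slide 1 with all 3 controls, carprofen 2 and 3 shared slide 2 with piroxicam 1 and 2, and piroxicam 3 shared slide 3 with the robenacoxib group. Between 66.2% (piroxicam 3) and 80.1% (carprofen 2) of spots were well above background, and 0 spots were saturated. A probe was tested if some group had it well above background on each of its 3 arrays, which left 31996. Levels are given as processed signal, the scanner software's background-subtracted intensity, and as log2 of that signal minus the array's 75th percentile. Relative to the transcripts spiked in at labelling, log2 differences from control lay higher, by 0.34 for carprofen, 0.30 for robenacoxib and 0.17 for piroxicam, so directions below hold relative to the bulk of the array. In a culture's pooled RNA, fewer cells with a transcript and less transcript per cell cannot be told apart.

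HTR2B was higher in all 3 drug groups than in control cells, and its level ran from control through piroxicam and robenacoxib to carprofen. The processed signal of its probe, A_11_P0000020246, was 53.7, 55.6 and 52.6 in controls 1, 2 and 3. With piroxicam it was 80.6, 73.1 and 83.2. With robenacoxib it was 89.8, 111.3 and 107.7. With carprofen it was 127.1, 137.1 and 120.5. No array of one group reached the range of another group, and the lowest carprofen array was above the highest robenacoxib array. The groups also did not overlap on the log2 scale, where the drug range lay above the control range for 21.7%, 19.5% and 16.6% of tested probes with piroxicam, carprofen and robenacoxib. The probe was well above background on all 12 arrays.

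**Figure D1:**
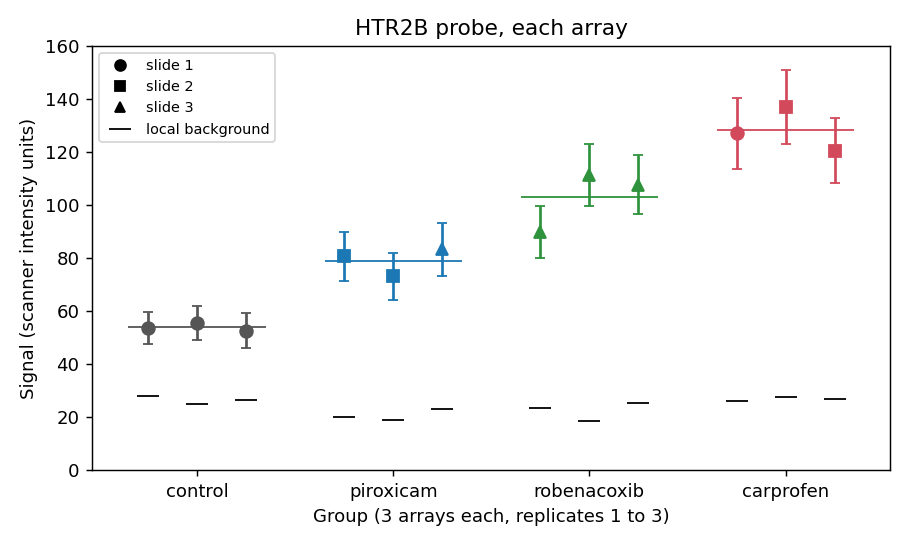
Processed signal of the HTR2B probe (linear intensity units) on each of the 12 arrays, by group; points are arrays with the scanner software's error estimate, marker shapes are slides, horizontal lines are group means and dashes are the local background. Control arrays lie between 52.6 and 55.6 and carprofen arrays between 120.5 and 137.1, with piroxicam and robenacoxib between them.

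On the log2 scale relative to the 75th percentile, the HTR2B level averaged -5.29 ± 0.04 in control cells (SD, n = 3). It averaged -4.87 ± 0.08 with piroxicam, -4.45 ± 0.13 with robenacoxib and -4.19 ± 0.04 with carprofen (SD, n = 3 each). The difference from control was 1.10 with carprofen, a fold of 2.15, and 0.297% of tested probes were at least 2-fold higher with this drug. With robenacoxib the difference was 0.85, a fold of 1.80. With piroxicam it was 0.42, a fold of 1.34. Each of these log2 differences had a standard error (SE) of 0.07 from limma's fit over all 12 arrays. Ordered from the largest rise, HTR2B stood at place 53 of 31996 tested probes with carprofen, 91 with robenacoxib and 1077 with piroxicam. These places, like the differences, are part of what led to the choice of the gene.

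The 3 gaps between neighbouring groups of HTR2B log2 levels were 0.28 from control to piroxicam, 0.22 from piroxicam to robenacoxib and 0.12 from robenacoxib to carprofen. As background, 1266 tested probes (3.96%) had 4 groups without overlap in some order, and 139 probes (0.43%) had them in the order seen for HTR2B. Arrays of a group differed in HTR2B by a pooled SD of 0.083 (log2), against a median of 0.065 over tested probes, and 59% of tested probes had a smaller SD. The probe was not bright: its signal stood between percentiles 36.5 and 39.8 of the probes on the control arrays and between 45.2 and 46.7 on the carprofen arrays.

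The size of the HTR2B difference depended on how background was taken away. Its uncorrected median signal averaged 112.2 in control cells, 138 with piroxicam, 163.3 with robenacoxib and 189.3 with carprofen. The drug-over-control ratio of those uncorrected signals was 1.23 with piroxicam, 1.46 with robenacoxib and 1.69 with carprofen. After subtracting the array's negative control level, the ratios were 1.51, 1.92 and 2.33 in the same order of drugs. The direction was the same in every one of these ratios, and the ratios were larger after subtraction.

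**Figure D2:**
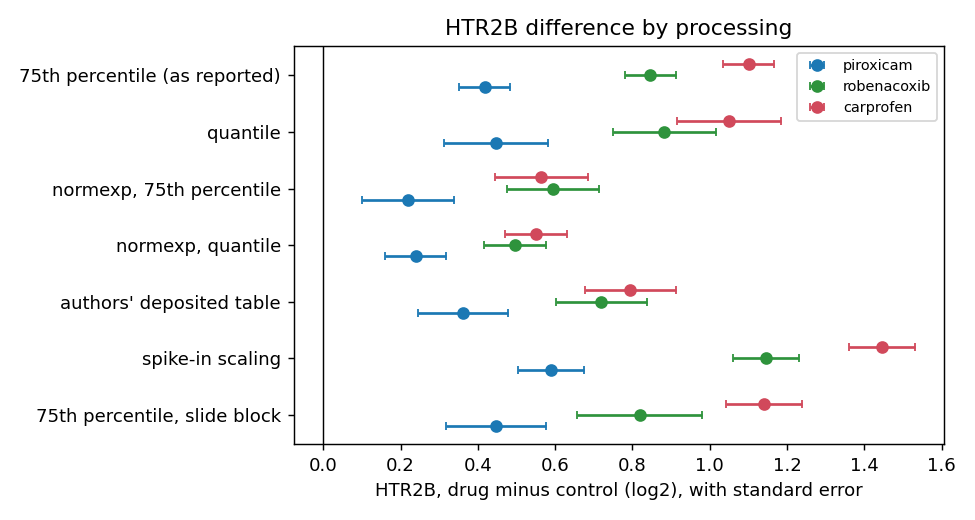
Difference in HTR2B level from control (log2, ± SE) for each drug under each way of processing the arrays; the first setting is the one used in the text. All plotted differences are above 0, and for carprofen they run from 0.55 with normexp background correction and quantile normalization to 1.45 with scaling to spiked-in transcripts.

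With 75th-percentile scaling after normexp background correction, the HTR2B log2 difference was 0.56 with carprofen, 0.59 with robenacoxib and 0.22 with piroxicam, so that the order of carprofen and robenacoxib turned. In the authors' deposited table, which holds log2 values of the same arrays, HTR2B averaged 6.41 in control cells, 6.77 with piroxicam, 7.13 with robenacoxib and 7.21 with carprofen. The ranges of control and piroxicam overlapped in the authors' deposited table, as did those of robenacoxib and carprofen. Under normexp with quantile normalization, the same pairs of groups overlapped. Carprofen and robenacoxib arrays thus stood apart in HTR2B with 75th-percentile and spike-in scaling and overlapped under the other 4 settings, while every carprofen and robenacoxib array stood above every control array under all 6.

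HTR2B was also compared within slides. On slide 1, carprofen 1 lay 1.14 (log2) above the mean of the 3 controls. On slide 2, carprofen 2 and 3 averaged 0.69 above piroxicam 1 and 2. On slide 3, the 3 robenacoxib arrays averaged 0.37 above piroxicam 3. With slide as a block, the differences from control were 1.14 (SE 0.10) with carprofen, 0.45 (SE 0.13) with piroxicam and 0.82 (SE 0.16) with robenacoxib. No slide held control beside piroxicam or robenacoxib, so those values join slides in a chain. The piroxicam value runs through carprofen, and the robenacoxib value through carprofen and then piroxicam. Carprofen 1 is the only link to the controls, and piroxicam 3 the only link to robenacoxib.

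In the RefSeq table of the dog assembly UU_Cfam_GSD_1.0, HTR2B lies inside the span of PSMD1, which encodes a proteasome subunit, and PSMD1 had no named probe on the array. Whether the HTR2B probe is separate from PSMD1 transcripts was not tested. HTR2A lies beside ESD, HTR1A between IPO11 and RNF180, HTR1B between IMPG1 and MEI4, and HTR1D between HNRNPR and LUZP1. None of these neighbours had a named probe here.

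Of the other 4 receptors, HTR1A and HTR1B passed the filter on dim probes and were tested. With limma and Benjamini-Hochberg adjustment over all tested probes, 0 of these 2 passed an adjusted p of 0.05 with any drug. At an unadjusted p under 0.05, HTR1B alone passed with carprofen (1 of 2) and with robenacoxib (1 of 2), and 0 of 2 passed with piroxicam. Over all tested probes, the share that passed the adjusted threshold was 32.9% with carprofen, 27.8% with piroxicam and 22.3% with robenacoxib. The share at an unadjusted p under 0.05 was 42.6% with carprofen, 39.9% with piroxicam and 34.8% with robenacoxib. HTR2A and HTR1D were too dim to be tested.

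**Figure D3:**
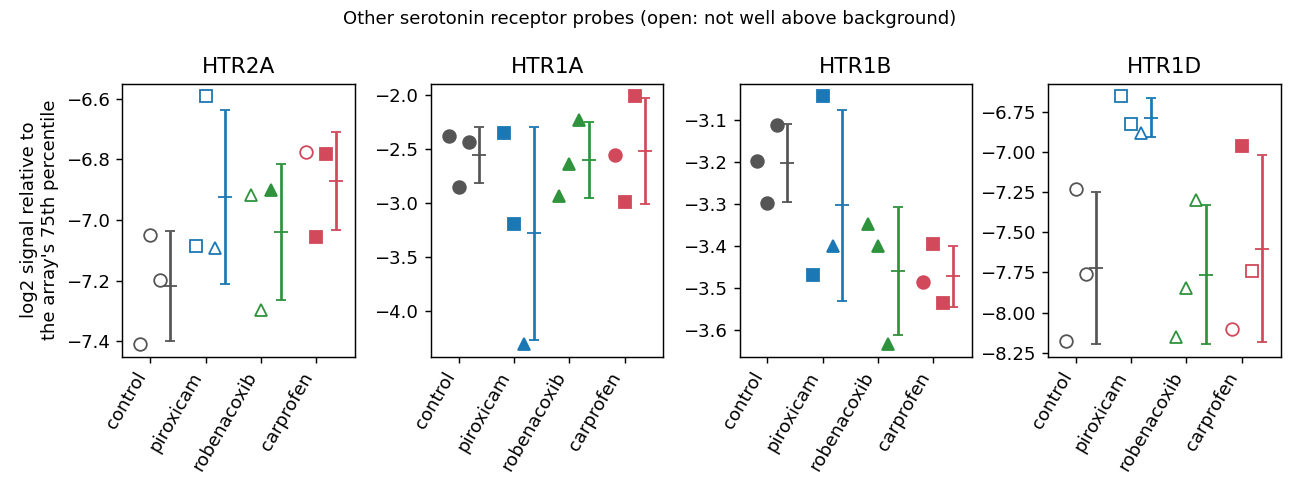
Level of HTR2A, HTR1A, HTR1B and HTR1D on each array (log2 of processed signal minus the array's 75th percentile), by group; open points were not well above background, and bars are group means ± SD (n = 3). HTR1A spreads from -4.31 to -2.35 among piroxicam arrays, and most HTR2A and HTR1D points are open.

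HTR2A, the other Gq-coupled receptor, was at the edge of detection. The processed signal of its probe, A_11_P051076, was 12.6, 15.9 and 14.2 in the control arrays. With piroxicam it was 17.0, 23.7 and 17.2, with carprofen 20.6, 18.8 and 20.6, and with robenacoxib 18.04, 14.5 and 18.8. It was well above background on 2 of 3 carprofen arrays and 1 of 3 robenacoxib arrays, and on 0 of 3 in both control and piroxicam cells. On the log2 scale the ranges of HTR2A overlapped between control and each drug, with measured means of -7.22 in control, -7.04 with robenacoxib, -6.92 with piroxicam and -6.87 with carprofen. HTR2A was not tested, and no fold is given at this signal.

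HTR1A, an inhibitory autoreceptor of serotonin neurons, had the widest spread between arrays of a group among the 3 tested receptors. Probe A_11_P0000020187 gave a processed signal of 410.8, 291.5 and 384.1 in control cells. With piroxicam it gave 452.3, 249.4 and 118.4, a ratio of 3.82 between the highest and lowest array. It gave 382.8, 313.7 and 560.7 with carprofen and 284.5, 364.8 and 476.5 with robenacoxib. Every drug group overlapped the control group, and the piroxicam group held the lowest of the 12 signals and one of the 3 highest.

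The HTR1A log2 difference from control was -0.72 with piroxicam (95% interval -1.73 to 0.28, limma adjusted p = 0.261). It was 0.04 with carprofen (interval -0.97 to 1.04, limma adjusted p = 0.961). With robenacoxib it was -0.05 (interval -1.05 to 0.96, limma adjusted p = 0.961). These intervals reach past 2-fold downward with piroxicam and to about 2-fold either way with carprofen and robenacoxib. The pooled SD of HTR1A was 0.59, larger than that of 97.1% of tested probes. Piroxicam 3 weighed on the piroxicam value, which was -0.21 without that array and -1.19 without piroxicam 1 (limma adjusted p = 0.061).

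HTR1B, a receptor that restrains serotonin release, was slightly lower with carprofen and robenacoxib without passing the adjusted threshold. Probe A_11_P0000020140 gave a processed signal of 234.3, 214.8 and 241.1 in control cells, 208.6, 277.1 and 222.6 with piroxicam, 214.3, 215.9 and 181.3 with robenacoxib, and 201.8, 238 and 195.4 with carprofen. On the relative log2 scale its control mean was -3.20 ± 0.09, against -3.47 ± 0.07 with carprofen, -3.46 ± 0.15 with robenacoxib and -3.30 ± 0.23 with piroxicam (SD, n = 3 each). The carprofen and robenacoxib ranges lay below the control range, as did those of 27.6% and 24.9% of tested probes.

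The HTR1B difference was -0.27 with carprofen (SE 0.11, 95% interval -0.53 to -0.01, limma adjusted p = 0.102). It was -0.26 with robenacoxib (interval -0.51 to -0.001, limma adjusted p = 0.142) and -0.10 with piroxicam (interval -0.36 to 0.16, limma adjusted p = 0.544). Relative to the spiked-in transcripts the sign turned, to 0.07 with carprofen, 0.04 with robenacoxib and 0.07 with piroxicam. HTR1B passed with carprofen under quantile normalization (-0.34, limma adjusted p = 0.040) and when piroxicam 2 was left out (-0.27, limma adjusted p = 0.033).

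HTR1D, a close relative of HTR1B, was well above background on 1 of 12 arrays, carprofen 2. Its probe, A_11_P050421, gave processed signals of 7.43, 14.1 and 9.62 in control cells, 8.23, 20.1 and 10.6 with carprofen and 7.67, 9.91 and 14.3 with robenacoxib. With piroxicam the signals were 23.0, 20.1 and 19.9, all above the control range. On the log2 scale the piroxicam range also lay above control, as it did for 21.7% of tested probes. The HTR1D difference was smaller under both normexp settings. In the authors' deposited table the HTR1D ranges of control and piroxicam overlapped. No piroxicam or control array was well above background for HTR1D, so no fold is given. The lowest signal that counted as well above background ran from 9.27 to 28.5 across arrays and was 28.5 on piroxicam 3 itself.

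Of the 13 other serotonin receptor genes looked for, HTR2C and HTR3A had a named probe. Each was well above background on 1 of 12 arrays, control 3, and neither was tested. SLC6A4, the serotonin transporter, had a probe that was well above background on 0 arrays. Among the serotonin receptors and the transporter named on this array, HTR2B, HTR1A and HTR1B were therefore the members well above background in every group. HTR2A and HTR1D carried the scanner software's flag for a positive and significant signal on every array, but mostly missed the well-above-background flag.

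Levels that moved most like HTR2B over the 12 arrays were sought among 546 named genes well above background on all arrays. The 12 points share groups and slides, so the correlations describe likeness of pattern only. The highest Pearson correlations were 0.959 for COL7A1, a collagen of skin anchoring fibrils, 0.955 for HSD17B14, a steroid dehydrogenase, and 0.954 for AMT, an enzyme of glycine cleavage. LATS1, a kinase of the Hippo pathway, had 0.913 and ATP4A, the catalytic subunit of the gastric proton pump, had 0.912. The median over the 546 genes was -0.204, with 16 genes above 0.8 and 54 below -0.8.

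**Figure D4:**
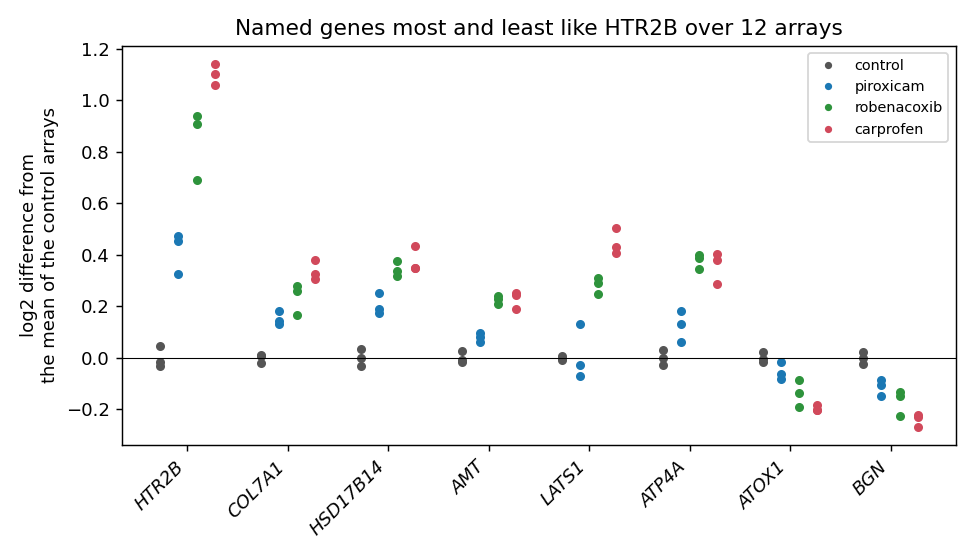
Difference from the control mean (log2) on each of the 12 arrays for HTR2B, the 5 named genes with the highest Pearson correlation to it and the 2 with the lowest. HTR2B reaches differences near 1.10 with carprofen, while the other genes stay within about 0.5 of their control mean.

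The genes that resembled HTR2B in pattern changed less in size. COL7A1 was 0.15 above control with piroxicam, 0.34 with carprofen and 0.23 with robenacoxib on the log2 scale, which is the same order of groups as HTR2B. HSD17B14 was 0.21, 0.38 and 0.34 above control with piroxicam, carprofen and robenacoxib. LATS1 was 0.01 above control with piroxicam and 0.45 with carprofen. ATP4A was 0.38 above control with robenacoxib and 0.36 with carprofen, so its order of those drugs was the other way round. AMT was 0.08 above control with piroxicam and 0.23 with each of carprofen and robenacoxib. The lowest correlations were -0.944 for ATOX1, a copper chaperone, and -0.937 for BGN, a matrix proteoglycan. ATOX1 was lower by a log2 difference of -0.20 with carprofen, and BGN by -0.24.

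Genes around these receptors were read from 7 lists of 138 genes, chosen with earlier results of these data known. They covered other receptors, serotonin metabolism, Gq and Gi signalling, receptor desensitisation, kinases downstream of HTR2B and other amine receptors. Of the 138 genes, 21 had a named probe and 17 were tested. With piroxicam 1 rose and 3 fell, with carprofen 2 rose and 2 fell, and with robenacoxib 1 rose and 2 fell. Of all tested probes, 12.2% rose and 15.6% fell with piroxicam, 13.3% and 19.5% with carprofen, and 9.64% and 12.7% with robenacoxib. The list genes that passed are 23.5%, 23.5% and 17.6% of the tested genes, against 27.8%, 32.9% and 22.3% of all tested probes. The median log2 difference of the 17 genes was -0.08 with robenacoxib, -0.03 with piroxicam and -0.02 with carprofen, against -0.03, -0.02 and -0.02 over all tested probes.

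**Figure D5:**
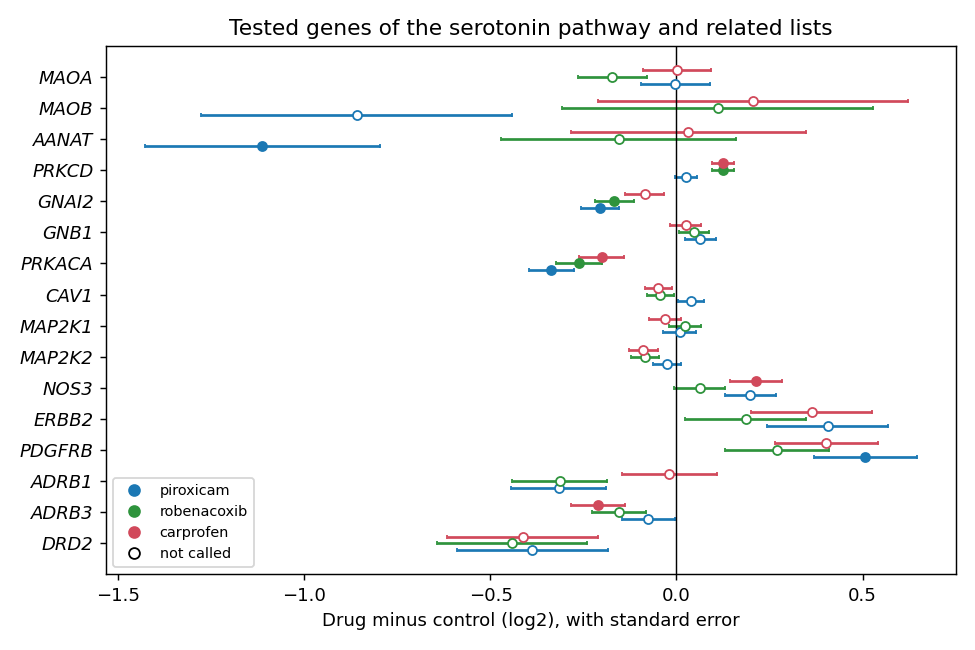
Difference from control (log2, ± SE from limma) for 16 of the 17 tested genes of the serotonin lists, by drug; filled points passed an adjusted p of 0.05. AANAT with piroxicam, at -1.11, is the filled point farthest from 0, and most points lie within 0.5 of it.

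In serotonin metabolism, 1 of 3 tested genes changed with a drug on its brightest probe. AANAT, which acetylates serotonin on the way to melatonin, had log2 levels of -4.32, -4.73 and -4.53 in control cells and -5.13, -5.81 and -5.97 with piroxicam. AANAT fell by 1.11 (SE 0.32, limma adjusted p = 0.028) with piroxicam, where 15.6% of all tested probes passed lower. This call was lost without control 1 (-1.01), control 3 (-1.12), piroxicam 2 (-1.03) or piroxicam 3 (-0.95), and with slide as a block (-1.63, limma adjusted p = 0.133). It was also lost with 75th-percentile scaling after normexp correction, where the difference was -0.50.

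MAOB, a monoamine oxidase, was -0.86 relative to control with piroxicam (SE 0.42, limma adjusted p = 0.157), with single piroxicam arrays from -7.60 to -5.73. Without piroxicam 1, MAOB passed lower with this drug (-1.28, limma adjusted p = 0.041). MAOA, the oxidase that prefers serotonin, was at -0.003 with piroxicam, 0.002 with carprofen and -0.17 with robenacoxib on its brighter probe, and none passed. A second, dimmer MAOA probe passed lower with all 3 drugs, at -0.50, -0.43 and -0.58 with piroxicam, carprofen and robenacoxib, so the probes of MAOA disagreed.

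On the Gq side, through which HTR2B signals, the array named 1 of 24 list genes. PRKCD, a protein kinase C isoform, rose by 0.13 (SE 0.03, limma adjusted p = 0.009) with carprofen and by 0.12 (limma adjusted p = 0.014) with robenacoxib. With piroxicam it stood at 0.03 and did not pass. Its dimmer probe was at -0.22, -0.16 and -0.12 with piroxicam, carprofen and robenacoxib, and passed with piroxicam only, so the direction of PRKCD differed between its probes. The carprofen call was lost with 75th-percentile scaling after normexp correction (limma adjusted p = 0.084). The robenacoxib call was lost there too (0.10), without robenacoxib 2 (0.10) and with slide as a block (0.19, limma adjusted p = 0.189). It was also lost in the authors' deposited table (0.11, limma adjusted p = 0.132) and under normexp with quantile normalization (limma adjusted p = 0.153).

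On the Gi side, through which HTR1A, HTR1B and HTR1D signal, 3 of 24 genes were named and tested. PRKACA, the catalytic subunit of protein kinase A, had a mean log2 level of -2.85 ± 0.06 in control cells, -3.05 ± 0.09 with carprofen, -3.11 ± 0.05 with robenacoxib and -3.19 ± 0.09 with piroxicam (SD, n = 3 each). It fell by 0.34 (SE 0.06, limma adjusted p = 0.003) with piroxicam, and leaving out any 1 array did not end this call, while slide as a block did (-0.24, limma adjusted p = 0.143). It fell by 0.20 (limma adjusted p = 0.031) with carprofen and by 0.26 (limma adjusted p = 0.014) with robenacoxib, but relative to the spiked-in transcripts both turned, to 0.14 and 0.04. The carprofen call was lost without control 1 (-0.20), control 3 (-0.17), carprofen 2 (-0.19) or carprofen 3 (-0.16), and the robenacoxib call without control 3 (-0.23) or robenacoxib 2 (-0.24). Slide as a block also ended both, at -0.10 (limma adjusted p = 0.302) with carprofen and -0.27 (limma adjusted p = 0.259) with robenacoxib, as did 75th-percentile scaling after normexp correction, at -0.17 and -0.14. With the replicate number as a block, the carprofen call was lost as well (limma adjusted p = 0.051).

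GNAI2, an inhibitory G protein alpha subunit, fell by 0.21 (limma adjusted p = 0.017) with piroxicam, a call lost without control 3 (-0.20) or piroxicam 2 (-0.19) and relative to the spiked-in transcripts (-0.03). With robenacoxib GNAI2 fell by 0.17 (limma adjusted p = 0.047) and turned to 0.13 relative to the spiked-in transcripts. This call was lost in 11 of the 12 fits without 1 array, and values over all 12 fits ran from -0.23 to -0.13. With slide as a block both GNAI2 calls were lost, at -0.27 (limma adjusted p = 0.185) with piroxicam and -0.24 (limma adjusted p = 0.434) with robenacoxib. GNB1, a G protein beta subunit, did not pass with any drug on any of its 4 probes. CAV1, which encodes the membrane scaffold caveolin and was the 1 gene named for receptor trafficking, did not pass either. In the authors' deposited table, GNB1 on its brightest probe passed higher with piroxicam (0.19, limma adjusted p = 0.044) and robenacoxib (0.25, limma adjusted p = 0.023). It also passed with these drugs under normexp with quantile normalization. Relative to the spiked-in transcripts, GNB1 and CAV1 passed higher with all 3 drugs.

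Among kinases and enzymes downstream of HTR2B, 6 genes were tested. PDGFRB, a receptor tyrosine kinase through which HTR2B can act on growth, rose by 0.51 (SE 0.14, limma adjusted p = 0.024) with piroxicam. Its second probe gave -0.14 with this drug, and slide as a block gave 0.10. The call was lost without control 2 (0.48), control 3 (0.50), piroxicam 2 (0.44) or piroxicam 3 (0.53). PDGFRB stood at 0.40 with carprofen (limma adjusted p = 0.051) and 0.27 with robenacoxib (limma adjusted p = 0.204). Its second probe gave 0.24 and 0.12 with these drugs. With carprofen it passed higher under both normexp settings and spike-in scaling. NOS3, the endothelial nitric oxide synthase, rose by 0.21 (SE 0.07, limma adjusted p = 0.040) with carprofen, where its 3 dimmer probes gave -0.14, -0.13 and 0.02. That call was lost in 7 of the 12 fits without 1 array, and values over all 12 fits ran from 0.17 to 0.27. With slide as a block the NOS3 difference with carprofen was 0.10. The carprofen call was also lost under quantile normalization, with no filter on dim probes and with the replicate block. With piroxicam NOS3 stood at 0.20 (SE 0.07, limma adjusted p = 0.059), where its dimmer probes gave 0.05, -0.11 and 0.05. That value passed higher in the authors' deposited table, under both normexp settings and under spike-in scaling. MAP2K1 and MAP2K2, kinases of the mitogen-activated cascade, and ERBB2 did not pass with any drug on their brightest probes. With carprofen, MAP2K2 passed lower without carprofen 1 (-0.12, limma adjusted p = 0.027). ERBB2 passed higher with carprofen without piroxicam 2 (0.36, limma adjusted p = 0.042). Relative to the spiked-in transcripts, MAP2K1 and ERBB2 passed higher with all 3 drugs. A dimmer probe of MAP2K2 passed lower with piroxicam (-0.15) and carprofen (-0.15).

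Of the other amine receptors, ADRB1, ADRB3 and DRD2 were tested. ADRB3, a beta adrenoceptor of fat tissue, fell by 0.21 (SE 0.07, limma adjusted p = 0.049) with carprofen and turned to 0.13 relative to the spiked-in transcripts. Its call was lost in 8 of the 12 fits without 1 array, and values over all 12 fits ran from -0.27 to -0.16. The call was also lost with quantile normalization, both normexp settings, the authors' deposited table, no filter on dim probes and the replicate block. Under those settings limma adjusted p ran from 0.059 to 0.089. ADRB1 and DRD2 did not pass with any drug. In the authors' deposited table, DRD2 passed lower with carprofen (-0.46, limma adjusted p = 0.042), and it also passed under normexp with quantile normalization. With the replicate block, ADRB1 passed lower with piroxicam (limma adjusted p = 0.036) and robenacoxib (limma adjusted p = 0.047).

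Markers of the labelled cell type were looked at beside these values. Of 15 melanocyte markers, 6 were named on the array. MITF, the master regulator of pigment cells, and SLC45A2, a melanosome transporter, were well above background on all 12 arrays, MC1R on 8 and KIT on 4, while TYR, the pigment-making tyrosinase, and EDNRB were on 0. The summed level of these markers, relative to the array's 75th percentile, was 0.892 to 0.913 in control cells. It was 0.834 to 0.852 with carprofen, 0.860 to 0.904 with piroxicam and 0.931 to 0.946 with robenacoxib. The sum adds linear levels and so mostly reflects MITF. Mean log2 levels in control cells were -0.55 for MITF, -5.09 for SLC45A2 and -5.72 for MC1R. The sum was lowest with carprofen and highest with robenacoxib, the groups with the highest HTR2B levels. A link between the sum and HTR2B was not tested. MITF fell by 0.13 (limma adjusted p = 0.007) with carprofen and turned to 0.22 relative to the spiked-in transcripts. This call was lost with slide as a block (-0.10, limma adjusted p = 0.096) and with 75th-percentile scaling after normexp correction (limma adjusted p = 0.053). The other tested melanocyte markers lay above control with carprofen, MC1R by 0.43 and SLC45A2 by 0.15, and neither passed. With piroxicam MC1R stood at -1.39 (SE 0.47, limma adjusted p = 0.053), and it passed lower without robenacoxib 1 or robenacoxib 2.

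Some markers of other cell types differed between groups as well. The summed level of 3 of 9 fibroblast markers, COL1A1, COL1A2 and DCN, was 150.5 to 153.5 in control cells, 132.1 to 138.1 with carprofen, 140.1 to 144.2 with piroxicam and 142.4 to 145 with robenacoxib. The summed level of 3 of 8 keratinocyte markers, of which TGM1 was well above background on 12 arrays and KRT1 and DSG3 on 0, was 0.0939 to 0.109 in control cells, 0.0633 to 0.0721 with piroxicam, 0.109 to 0.114 with robenacoxib and 0.144 to 0.157 with carprofen. The fibroblast sum mostly reflects COL1A2, at a mean log2 level of 6.00 in control cells, against 3.41 for COL1A1 and -5.26 for DCN. COL1A1 and COL1A2 were lower with carprofen (limma adjusted p = 0.001 and 0.004), but turned to 0.16 and 0.18 relative to the spiked-in transcripts. Both calls were lost in the authors' deposited table (limma adjusted p = 0.216 and 0.120) and under normexp with quantile normalization. The COL1A2 call was also lost under quantile normalization (-0.04) and with slide as a block (-0.13). The ranges of the 3 of 10 leukocyte markers overlapped between control, at 0.0867 to 0.123, and every drug. So did the ranges of the endothelial markers and of the neuron and neuroendocrine markers. The part of these markers in the HTR2B levels was not tested.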

How the data were processed

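Scanning software was Feature Extraction 10.7.3.1 with protocol GE1_107_Sep09, per the file headers. The intensity of each spot in the deposited files had its background removed array by array, with no scaling between arrays. The authors' deposited table holds log2 values, as judged from the numbers. The submitters' processing notes name limma 3.24.15 for it, while its normalization and background step were not given in the sources used here.

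Control spots and outlier-flagged spots were left out, the log2 processed signal was reduced by each array's 75th percentile, and spots of a probe were averaged. R 4.3.3 and limma 3.58.1 (lmFit, eBayes) fitted 4 groups to 12 arrays with 8 residual degrees of freedom, tested two-sided at 0.05 after Benjamini-Hochberg adjustment over 31996 probes. The script was tested on simulated data. The number of arrays limits the precision, and the median SE was 0.053.

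Members and lists were chosen with earlier results of these data known. For a listed gene, the tested probe of highest mean was taken. Genes named were all members, list genes that passed (up to 3 per list and drug; all tested genes of lists with 3 or fewer), and the 5 most and 2 least correlated with HTR2B. Names came through RefSeq accessions, which named 3.01% of probes. The planned normexp correction used median signals, since the mean signal column was not in the files used. No sequence was printed, and 1 list gene, counted in the totals, is not reported here by name. Alternatives covered scaling, background correction, the dim-probe filter, the deposited table, slide, replicate number and leaving out each array.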

Additional observations from a re-analysis of the deposited data

How the results depend on the processing

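HTR2B stayed above control with each drug under every alternative run. Its log2 difference with carprofen was 0.56 under normexp with 75th-percentile scaling, 0.55 under normexp with quantile normalization, 1.45 under spike-in scaling and 0.79 in the authors' deposited table. With piroxicam it was 0.22, 0.24 and 0.59 under the first 3 of these, and with robenacoxib 0.59, 0.50, 1.15 and 0.72. Without 1 array in turn it ran from 1.08 to 1.12 with carprofen, 0.39 to 0.46 with piroxicam and 0.80 to 0.92 with robenacoxib. HTR1A with carprofen turned to -0.019 (quantile), -0.011 (normexp with quantile), -0.0142 (authors' deposited table) and -8e-04 (slide block), and ran from -0.22 to 0.27 without 1 array. HTR1A with robenacoxib turned to 0.0053 (normexp), 0.25 (spike-in), 1.43 (slide block) and 0.02 (without control 3 and piroxicam 3, added after seeing the data), and ran from -0.23 to 0.12 without 1 array. HTR1B turned to 0.0745 with carprofen, 0.0706 with piroxicam and 0.0421 with robenacoxib under spike-in scaling, and with piroxicam to 0.0343 and 0.0325 under the normexp settings and 0.0386 in the authors' deposited table. Of the other receptors, 1 passed with carprofen under quantile normalization, and 0 to 1 without 1 array.

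Probes that passed numbered 10523 with carprofen, 8903 with piroxicam and 7145 with robenacoxib. Spike-in scaling gave 24157, 13753 and 21836, of which 99.7%, 93.1% and 99.3% were higher, against 40.6%, 43.8% and 43.1%. Slide as a block gave 5332, 1661 and 448, with 71.2% of the last higher. Normexp with 75th-percentile scaling gave 5430, 5783 and 4569. Carprofen had 6846 under normexp with quantile normalization and 6472 in the authors' deposited table. Without control 3 and piroxicam 3, piroxicam had 4787 and robenacoxib 4710. Without 1 array the ranges were 8097 to 10440, 6488 to 9426 and 4676 to 7628, the lowest robenacoxib count being without control 2.

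List genes that passed numbered 4 with carprofen, 4 with piroxicam and 3 with robenacoxib. Carprofen had 2 under quantile normalization, 2 under normexp with 75th-percentile scaling, 13 under spike-in scaling, 1 with no filter, 2 with the slide block and 1 without control 3 and piroxicam 3. Piroxicam had 9 under spike-in scaling, 0 with the slide block and 1 without those arrays. Robenacoxib had 1 under normexp, 10 under spike-in scaling, 0 with the slide block and 1 without those arrays. Without 1 array the counts ran from 1 to 5, 1 to 6 and 0 to 3. The cause of these changes was not tested.

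Replicate numbers did not pair the arrays: deviations of same-numbered arrays correlated at -0.449 to 0.2, with 3 of 18 pairs over 0.1. With the replicate block, HTR2B differed from control by 1.10, 0.42 and 0.85 with carprofen, piroxicam and robenacoxib (SE 0.07), and 1 list gene passed with carprofen. HTR2A and HTR1D lay near background, which limits what their signal can show.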
